A study of Mus musculus with 32 samples.

Results

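The vascular endothelial growth factors (VEGF) and platelet-derived growth factors (PDGF) are dimeric ligands of a common structural superfamily, and both act through receptor tyrosine kinases. VEGF-A and placental growth factor act on endothelial receptors, VEGF-C and VEGF-D chiefly on the lymphatic receptor Flt4, and the PDGF dimers on PDGFR-alpha and PDGFR-beta. In the heart, PDGFR-alpha marks fibroblasts and PDGFR-beta marks pericytes and smooth muscle cells, although cultured fibroblasts carry both. The 9 genes described are the ligands Vegfa, Vegfb, Vegfc, Vegfd, Pgf, Pdgfa and Pdgfc and the receptors Pdgfra and Pdgfrb. They were taken by symbol from the 55414 genes of the count table, all 9 were found, and all 9 passed the filter on low counts that left 16760 genes to test.

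Poly(A) RNA was sequenced from passage 1 mouse cardiac fibroblasts in 32 libraries, 4 for each of 8 groups. Cells of all groups carried the C57BL/6J_Pkm2fl/fl genotype, in which an exon of the pyruvate kinase gene Pkm is flanked by recombinase sites, and received either the recombinase iCre or, as its control, LacZ by transduction. In each vector the cells were treated for 24 h, without serum, with bFGF (20 ng/ml), IL-1b (15 ng/ml) or TGFb (10 ng/ml), and the groups are iCre bFGF, LacZ bFGF, iCre IL-1b, LacZ IL-1b, iCre TGFb, LacZ TGFb, iCre SS and LacZ SS. SS is not spelled out in the labels and is read here as the starved cells with no factor added. All cells had been grown in medium that held 20 ng/ml human bFGF, so SS cells had met that factor before starvation. Groups are those of the titles. In the 16 LacZ libraries the treatment tag goes against the title: it reads LacZ_bFGF for LacZ SS, LacZ_Con for LacZ IL-1b and LacZ_IL1b for LacZ TGFb, and iCre_TNFa, thus also another vector, for LacZ bFGF. That doubt bears on every LacZ value below. TNFa is found in those tags of LacZ bFGF and in the protocol text but in no title, and TAK1fl/fl, from the protocol text, is in no title or genotype tag.

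Libraries held 20736203 to 34995038 counts. Pkm, counted over the whole gene and so with no view of the floxed exon alone, was lower in iCre in 16 of 16 same-numbered pairs of libraries, by a log2 difference of -0.50 ± 0.11 (SE) averaged over conditions (adjusted p = 0.0744). With the replicate number as a block, Pkm differed by -0.51 with an adjusted p of 0.00381. Fibroblast markers summed to between 20578 and 67163 counts scaled to library size (CPM) in every library. Endothelial markers summed to 6.52 to 34.5 CPM, with Pecam1 at no more than 1.42 CPM and Tie1 at 0 in 8 libraries. Among the endothelial markers, Tek had the highest median, at 9.32 CPM (2.99 to 31.6 CPM), and Erg reached at most 26.8 CPM (median 0.287 CPM). The mural markers (pericytes and smooth muscle) summed to 137 to 1167 CPM, cardiomyocyte markers to 4.26 to 127 CPM and mesothelial markers to 3.2 to 15.8 CPM. Leukocyte markers followed the replicate number, with medians of 303, 121, 594 and 68.2 CPM in numbers 1, 2, 3 and 4.

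The libraries numbered 4 stood apart for several of the 9 genes in both vectors and all conditions. Pdgfra was above its group mean in 8 of 8 number 4 libraries, by 0.84 (log2) on average, while Pdgfa was above it in 0 of 8, with an average deviation of -0.74. Pdgfc was above its group mean in 7 of 8 number 4 libraries, by 0.62 on average. Vegfb was above it in 8 of 8, but by only 0.24 on average, and its number 3 libraries deviated more, at -0.37. What the number stands for (a mouse, an isolation or a day) is not given. Fibroblast markers summed to a median of 31717 CPM in number 4, against 46329 to 57190 CPM in the other numbers, and mural markers to 203 CPM, against 404 to 564 CPM. With TGFb, number 4 was not the lowest of its group. Its fibroblast sums there were 55276 CPM in iCre and 60066 CPM in LacZ, and its mural sums 296 and 489 CPM. With IL-1b, the mural sums of number 4 were not the lowest either, at 164 CPM in iCre and 192 CPM in LacZ. Number 3 had 148 and 137 CPM there. The part of these differences in the results was not tested. For several results that changed when number 4 was left out, the value without it is given beside the result. Not every call that changed without number 4 is named.

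Of the 9 genes, 8 have a start site in the RefSeq promoter table of GRCm38.p6. The 250 bases before the start are shown for 2 genes that rose with TGFb (Vegfa and Pdgfc) and for 2 that fell with it (Vegfb and Pdgfra) so that promoters of genes with opposite responses can be read side by side. The windows are chr17:46032378-46032627 on the minus strand for Vegfa, chr3:81036166-81036415 on the plus strand for Pdgfc, chr19:6987652-6987901 on the minus strand for Vegfb and chr5:75152001-75152250 on the plus strand for Pdgfra. None of the 4 windows overlaps an annotated exon. Capitals in the 4 windows mark matches, on either strand, to any of 4 short motifs: the hypoxia response core ACGTG, the AP-1 site TGANTCA, the Smad-binding CAGAC and the GC box GGGCGG. Vegfa has 2 starts in the table, and the window of the other (chr17:46025164-46025413, minus strand), which overlaps an exon and is not shown, held 1 match to the hypoxia core, 1 to the Smad-binding motif and 1 to the GC box.
Vegfa: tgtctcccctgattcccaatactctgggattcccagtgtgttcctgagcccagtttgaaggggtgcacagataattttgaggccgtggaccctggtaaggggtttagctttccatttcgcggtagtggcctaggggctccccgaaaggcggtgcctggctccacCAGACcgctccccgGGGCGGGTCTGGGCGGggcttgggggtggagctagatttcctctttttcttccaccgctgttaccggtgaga
Pdgfc: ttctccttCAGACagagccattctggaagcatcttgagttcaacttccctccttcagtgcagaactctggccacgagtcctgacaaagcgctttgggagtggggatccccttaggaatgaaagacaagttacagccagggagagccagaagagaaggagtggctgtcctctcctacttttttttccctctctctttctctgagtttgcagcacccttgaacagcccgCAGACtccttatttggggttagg
Vegfb: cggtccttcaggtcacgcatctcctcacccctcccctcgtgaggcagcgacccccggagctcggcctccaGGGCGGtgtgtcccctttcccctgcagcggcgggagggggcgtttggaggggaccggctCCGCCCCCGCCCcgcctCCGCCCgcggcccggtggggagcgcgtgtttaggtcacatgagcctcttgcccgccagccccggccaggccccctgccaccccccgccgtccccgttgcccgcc
Pdgfra: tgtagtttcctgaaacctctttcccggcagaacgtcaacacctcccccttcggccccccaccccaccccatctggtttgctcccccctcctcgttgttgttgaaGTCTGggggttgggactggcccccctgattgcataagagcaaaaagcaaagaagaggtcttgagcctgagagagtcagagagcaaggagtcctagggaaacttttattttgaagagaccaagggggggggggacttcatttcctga

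The Vegfa window held 2 CAGAC and 2 GGGCGG matches, of which 1 CAGAC match lies inside the stretch formed by both GC boxes. Pdgfc held 2 CAGAC matches, Pdgfra 1 on the opposite strand, and Vegfb none but 4 GGGCGG matches. CAGAC occurs in 42.2% of the 32851 windows of the table and GGGCGG in 32.7%. Matches to ACGTG (16.6% of windows) and TGANTCA (6.75%) were not among the capitals of these 4 windows. G and C made up 59.2% of the Vegfa window, 50.8% for Pdgfc, 76.4% for Vegfb and 54.4% for Pdgfra, against a median of 52.4% over the table.

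Some of these genes rose and others fell with the same stimulus, and TGFb gave the most calls. With TGFb, Vegfa, Pgf and Pdgfc rose and Vegfb, Vegfd and Pdgfra fell in both vectors, and Pdgfa rose in LacZ cells. With IL-1b, Pgf and Vegfa rose in both vectors, Vegfd fell in LacZ cells and Pdgfrb fell in iCre cells. With bFGF, Vegfd fell in LacZ cells. Vegfc passed the test in no comparison. The 3 stimuli of a vector share its 4 SS libraries, so their changes are given side by side and are not compared as independent results.

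Counted against all genes, TGFb called 6 of the 9 genes in iCre cells (3 rose, 3 fell), where 38.3% of all genes tested were called (20.2% rose, 18.1% fell), and 7 of 9 in LacZ cells (4 rose, 3 fell), where 46.3% were (23.4% rose, 22.9% fell). IL-1b called 3 of 9 in iCre cells (2 rose, 1 fell), against 15.7% of all genes (8.88% rose, 6.84% fell), and 3 of 9 in LacZ cells (2 rose, 1 fell), against 19.2% (11.1% rose, 8.13% fell). With bFGF, the test called 0 of 9 in iCre cells, against 2.2% of all genes, and 1 of 9 in LacZ cells, which fell, against 2.56% (0.919% fell). In iCre cells with bFGF, 3 of the 9 had an unadjusted p under 0.05 in edgeR, and DESeq2 called 2 (5.13% of all genes). With the replicate number as a block the counts were 3 and 2 with bFGF (11.4% and 12.2% of all genes), 5 and 5 with IL-1b (29.0% and 32.3%) and 7 and 7 with TGFb (51.6% and 58.4%), each given for iCre and then LacZ. The median log2 change of the 9 genes stood at 0.03 with TGFb in iCre cells and at 0.00 in LacZ cells, beside medians of -0.046 and -0.058 over all genes, with 3 or 4 rises beside 3 falls. Scaling to total counts alone moved the median of all genes with TGFb to -0.268 in iCre and -0.258 in LacZ and changed no call among the 9.

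**Figure D1:**
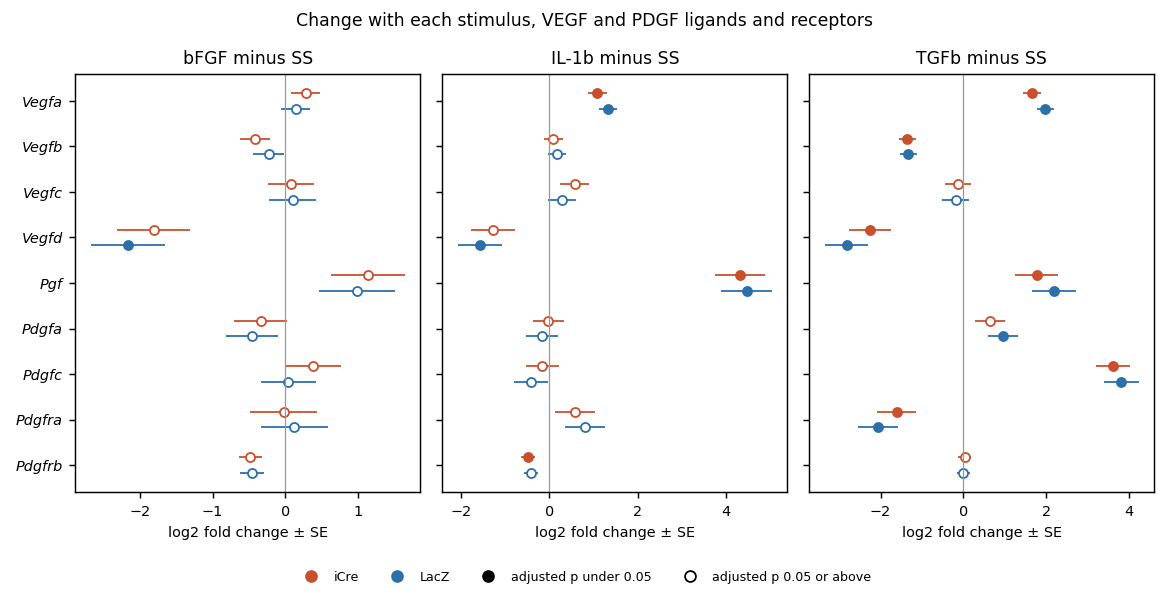
Log2 fold change ± SE of each of the 9 genes for bFGF, IL-1b and TGFb minus SS, with iCre above LacZ and filled points for an adjusted p under 0.05. Pdgfc with TGFb (3.61 in iCre, 3.81 in LacZ) and Pgf with IL-1b (4.32 in iCre, 4.47 in LacZ) lie farthest to the right, and Vegfd with TGFb (-2.25 in iCre, -2.82 in LacZ) farthest to the left.

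Vegfa (ENSMUSG00000023951, chr17:46016993-46032369, minus strand, GRCm38) encodes VEGF-A, the principal growth factor of blood vessel endothelium. It had 475, 416, 384 and 216 CPM in the iCre TGFb libraries, in the order of replicate numbers 1 to 4, against 135, 107, 142 and 90.3 CPM in iCre SS. In LacZ cells it had 421, 411, 479.5 and 452 CPM with TGFb, against 118, 120.0, 130.2 and 78.7 CPM in SS. Every TGFb library lay above every SS library in both vectors, and the lowest TGFb value was that of iCre number 4. Vegfa rose 3.14-fold with TGFb in iCre cells (log2 1.65 ± 0.21 SE, adjusted p = 1.1e-06) and 3.95-fold in LacZ cells (log2 1.98 ± 0.21, adjusted p = 4.51e-08).

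Vegfa also rose with IL-1b. Vegfa had 303, 281, 259.6 and 165 CPM in the iCre IL-1b libraries, against the iCre SS values above, and 348, 317, 248 and 211 CPM in the LacZ IL-1b libraries. All IL-1b libraries were above all SS libraries of their vector. The change was log2 1.09 ± 0.21 in iCre cells (adjusted p = 0.000526) and 1.33 ± 0.21 in LacZ cells (adjusted p = 4.04e-05). With bFGF, Vegfa averaged 144 ± 14.0 CPM in iCre cells and 123 ± 9.82 CPM in LacZ cells (SD, n = 4 each), and its ranges overlapped those of SS (adjusted p = 0.552 and 0.813). Ordered by mean level, the 4 groups with TGFb or IL-1b stood above the 4 with bFGF or SS, and the iCre IL-1b and iCre bFGF groups were the only neighbours in that order whose ranges did not overlap.

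Vegfb (ENSMUSG00000024962, chr19:6982473-6987651, minus strand), whose product binds Flt1 and is abundant in heart muscle, had the opposite response to TGFb. It had 13.7, 16.5, 11.1 and 23.3 CPM with TGFb in iCre cells, against 41.7, 47.9, 28.8 and 46.9 CPM in iCre SS. LacZ cells had 14.0, 17.8, 11.0 and 15.0 CPM with TGFb, against 34.4, 37.6, 28.0 and 45.9 CPM in SS. The TGFb and SS libraries did not overlap in either vector. The log2 change was -1.35 ± 0.21 in iCre cells (adjusted p = 1.66e-05) and -1.33 ± 0.21 in LacZ cells (adjusted p = 1.27e-05), so that TGFb cells held 0.391 and 0.397 of the SS level. With IL-1b, Vegfb averaged 44.0 ± 4.80 CPM in iCre cells and 41.0 ± 7.21 CPM in LacZ cells, and its ranges overlapped those of SS (adjusted p = 0.827 and 0.632). With bFGF it averaged 30.8 ± 7.79 CPM in iCre cells (log2 -0.42, adjusted p = 0.313, and 0.0144 under the replicate block at -0.43) and 31.0 ± 2.59 CPM in LacZ cells (log2 -0.23, adjusted p = 0.641).

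Vegfd (ENSMUSG00000031380, chrX:164373378-164402650, plus strand), a lymphatic growth factor activated by proteolysis, was lower with each stimulus than in SS by its group means. With TGFb, Vegfd had 28.8, 80.1, 28.6 and 152 CPM in iCre cells, against 307, 495, 252 and 322 CPM in iCre SS. LacZ cells had 40.9, 72.2, 15.6 and 104 CPM with TGFb, against 406, 503, 156 and 584 CPM in SS. Every TGFb library lay below every SS library of its vector, with number 3 lowest in each vector and number 4 highest among the TGFb libraries. Vegfd fell with TGFb in iCre cells (log2 -2.25 ± 0.51, adjusted p = 0.00101) and in LacZ cells (log2 -2.82 ± 0.52, adjusted p = 7.89e-05). Without the iCre TGFb number 4 library, the iCre change was -2.91 (adjusted p = 0.0001).

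With IL-1b, Vegfd had 137, 152, 121 and 159 CPM in iCre cells, all below the lowest iCre SS library. In LacZ cells it had 155, 168, 71.8 and 162 CPM with IL-1b, and these overlapped the SS range through SS number 3. The iCre change of log2 -1.28 ± 0.49 missed the threshold (adjusted p = 0.0801, and 0.0279 with the replicate block at -1.24), whereas the LacZ change of -1.57 ± 0.50 passed it (adjusted p = 0.0264). The LacZ call was lost without any of 4 libraries: IL-1b number 1 (adjusted p = 0.0522), IL-1b number 3 (0.0931), SS number 2 (0.0701) or SS number 4 (0.0787). With bFGF, Vegfd had 99.7, 133, 106 and 54.0 CPM in iCre cells and 93.6, 106, 107 and 61.6 CPM in LacZ cells, each library below all SS libraries of its vector. The change with bFGF was log2 -1.81 ± 0.50 in iCre cells (adjusted p = 0.0537, and 0.0113 with the replicate block at -1.71) and -2.16 ± 0.51 in LacZ cells (adjusted p = 0.0233). That LacZ call was lost without number 1, 2 or 4 of either group (adjusted p of 0.0573 to 0.0948). Without all libraries numbered 4, the bFGF changes were -1.63 in iCre (adjusted p = 0.039) and -1.79 in LacZ (adjusted p = 0.0356).

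By group mean, the sums of cardiomyocyte, mesothelial, endothelial and mural markers were also lower with each stimulus than in SS, in both vectors. For mural and endothelial markers the gap was narrowest in iCre TGFb, at 507 and 17.9 CPM, against 516 and 18.2 CPM in iCre SS. Leukocyte sums were higher with IL-1b, at means of 421 CPM in iCre and 355 CPM in LacZ, against 296 and 286 CPM in SS. The 8 cardiomyocyte markers, of which 2 passed the filter and Myh6 was at 0 in 23 of 32 libraries, summed to 6.01 to 36.7 CPM with bFGF, 4.26 to 7.51 CPM with IL-1b and 7.91 to 36.7 CPM with TGFb, against 22.1 to 127 CPM in SS, over both vectors. Among them Tnnt2 fell with IL-1b (log2 -4.05 in iCre and -4.12 in LacZ, adjusted p = 0.000114 and 6.99e-05) and with TGFb (-2.51 and -2.0, adjusted p = 0.00228 and 0.00857). Tnni3, the other cardiomyocyte marker tested, was not called with IL-1b (log2 0.16 and -0.33, adjusted p = 0.916 and 0.804). With TGFb, Tnni3 changed by -0.44 and -0.42 (adjusted p = 0.649 in each vector). Tnni3 reached at most 3.59 CPM and each untested marker at most 0.529 CPM, so the SS sums were chiefly Tnnt2. The 6 mesothelial markers, 4 of them tested, summed to 3.94 to 8.30 CPM with bFGF, 3.21 to 7.23 CPM with IL-1b and 3.45 to 10.5 CPM with TGFb, against 7.07 to 15.8 CPM in SS. The part of these marker lists in the Vegfd result was not tested.

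Vegfc (ENSMUSG00000031520, chr8:54077606-54187096, plus strand), the other lymphatic ligand, stayed within a narrow range. Its group means ran from 31.2 ± 11.2 CPM in iCre TGFb to 50.6 ± 7.06 CPM in iCre IL-1b, and each neighbouring pair in the order of the 8 groups overlapped. The largest change among the 6 stimulus comparisons was log2 0.57 ± 0.32 with IL-1b in iCre cells (adjusted p = 0.254). With bFGF, the number 4 libraries had 13.4 CPM in iCre and 17.7 CPM in LacZ, where the other 3 numbers had 37.0 to 48.6 CPM in iCre and 45.1 to 48.3 CPM in LacZ.

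Pgf (ENSMUSG00000004791, chr12:85166635-85177790, minus strand) encodes placental growth factor, which binds Flt1 and is low in most adult tissues. With IL-1b it had 53.8, 42.2, 32.6 and 40.3 CPM in iCre cells, against 1.42, 2.72, 1.33 and 2.91 CPM in iCre SS. With IL-1b in LacZ cells it had 44.6, 38.1, 31.0 and 28.3 CPM, against 1.09, 1.54, 1.77 and 1.97 CPM in LacZ SS. Each of these 8 IL-1b libraries was above each of the 24 other libraries. Pgf rose 20.0-fold with IL-1b in iCre cells (log2 4.32 ± 0.56, adjusted p = 4.18e-06) and 22.1-fold in LacZ cells (log2 4.47 ± 0.57, adjusted p = 2.53e-06).

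TGFb also raised Pgf, to 11.7, 4.58, 8.12 and 4.27 CPM in iCre cells and to 7.22, 6.10, 11.7 and 4.04 CPM in LacZ cells, above all SS libraries of the same vector. The change was log2 1.77 ± 0.52 in iCre cells (adjusted p = 0.00802) and 2.18 ± 0.53 in LacZ cells (adjusted p = 0.00145). With bFGF, number 4 alone was high, at 11.9 CPM in iCre and 6.69 CPM in LacZ, where numbers 1 to 3 had 1.89 to 2.47 CPM in iCre and 1.71 to 2.12 CPM in LacZ. The bFGF change was log2 1.13 ± 0.51 in iCre cells and 0.98 ± 0.52 in LacZ cells (adjusted p = 0.259 and 0.356), and 0.25 and 0.42 without number 4.

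**Figure D2:**
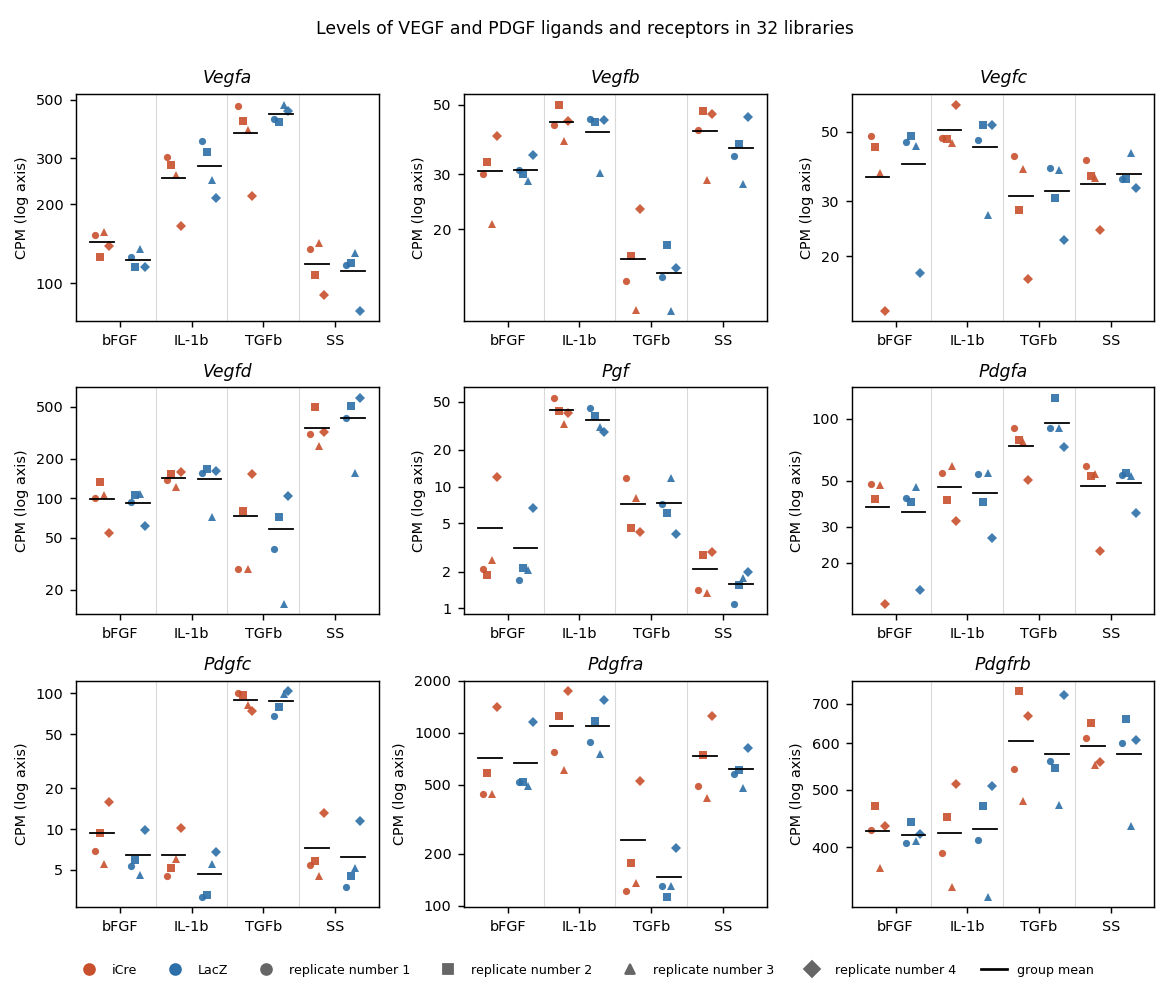
CPM of the 9 genes in all 32 libraries on log axes, 1 panel a gene, with iCre left of LacZ in each condition, marker shapes for the replicate number and bars for group means. The IL-1b libraries stand alone at the top for Pgf (28.3 to 53.8 CPM), the TGFb libraries for Pdgfc (68.6 to 104 CPM), and number 4 is the highest library of every group for Pdgfra.

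The mean make-up of VEGF ligand RNA was unlike between TGFb and SS. Per kilobase of annotated exon, which permits comparison between genes, Vegfd accounted for 21.3% of the summed VEGF ligand level (Vegfa to Vegfd and Pgf) in iCre TGFb cells and 15.5% in LacZ TGFb cells, against 66.9% in iCre SS and 69.5% in LacZ SS. Vegfa made up 60.9% in iCre TGFb and 68.1% in LacZ TGFb, against 13.7% in iCre SS and 12.8% in LacZ SS. On this scale the log2 ratio of Vegfa to Vegfd was 1.84 ± 1.61 in iCre TGFb (SD, n = 4) and 2.40 ± 1.25 in LacZ TGFb, against -2.34 ± 0.62 in iCre SS and -2.58 ± 1.10 in LacZ SS. The iCre TGFb number 4 library, at -0.33, was the only TGFb library in which Vegfd exceeded Vegfa. Pgf reached 8.01% of the sum in iCre IL-1b and 6.90% in LacZ IL-1b, against 0.341% in iCre SS and 0.261% in LacZ SS. Without number 4, the Vegfd share was 12.96% in iCre TGFb and 12.1% in LacZ TGFb, against 66.3% in iCre SS and 66.0% in LacZ SS, and the Vegfa share 68.9% and 69.9% with TGFb, against 14.7% and 15.1% in SS. The ratio of Vegfa to Vegfd without number 4 was 2.56 in iCre TGFb and 2.77 in LacZ TGFb, against -2.24 in iCre SS and -2.20 in LacZ SS. These shares and ratios are descriptions and were not tested.

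Among the PDGF ligands, Pdgfc (ENSMUSG00000028019, chr3:81036416-81214040, plus strand) changed most. PDGF-C is secreted in a latent form that needs proteolytic cleavage before it activates PDGFR-alpha. Pdgfc had 101, 97.4, 81.6 and 74.5 CPM with TGFb in iCre cells, against 5.46, 5.78, 4.55 and 13.1 CPM in iCre SS. LacZ cells had 68.6, 79.5, 98.2 and 104 CPM with TGFb, against 3.73, 4.54, 5.15 and 11.6 CPM in SS. All 8 TGFb libraries were above all 24 other libraries. Pdgfc rose 12.2-fold in iCre cells (log2 3.61 ± 0.41, adjusted p = 2.6e-07) and 14.0-fold in LacZ cells (log2 3.81 ± 0.42, adjusted p = 6.45e-08), and by 4.16 and 4.21 on the log2 scale without number 4, whose SS level was the highest of its group. Neither bFGF nor IL-1b gave a call, with group means of 4.70 to 9.42 CPM beside 6.25 to 7.22 CPM in SS.

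Pdgfa (ENSMUSG00000025856, chr5:138976014-138997370, minus strand), the ligand that forms PDGF-AA, had 89.8, 78.6, 76.8 and 50.3 CPM with TGFb in iCre cells, against 59.0, 52.9, 54.0 and 22.8 CPM in iCre SS. In LacZ cells it had 89.9, 126, 89.9 and 72.6 CPM with TGFb, against 53.4, 54.5, 52.4 and 34.9 CPM in SS. LacZ TGFb and SS libraries did not overlap, and in iCre cells only TGFb number 4 fell into the SS range while being the higher of the number 4 pair. Pdgfa rose 1.94-fold with TGFb in LacZ cells (log2 0.96 ± 0.36, adjusted p = 0.0314, and 0.000108 with the replicate block at 0.98). In iCre cells the log2 change of 0.65 ± 0.36 missed the threshold (adjusted p = 0.158), but with the replicate block it was 0.70 and called (adjusted p = 0.00309), as it was without number 4 (0.57, adjusted p = 0.00288). The LacZ call was lost without SS number 1 (adjusted p = 0.0512), SS number 4 (0.0881) or TGFb number 2 (0.104). Pdgfa shares exonic bases with the antisense gene 6330403L08Rik, which held 19881 counts in all beside 44167 for Pdgfa, and without a stated strand setting their reads cannot be told apart. Overlapping genes of Pdgfc and Pdgfra held no more than 264 counts each. With IL-1b and bFGF, Pdgfa averaged 35.4 to 46.5 CPM, beside 47.2 to 48.8 CPM in SS, and no change was called.

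The receptor Pdgfra (ENSMUSG00000029231, chr5:75152292-75198215, plus strand) fell with TGFb, the stimulus with which its ligand gene Pdgfc rose. It had 122, 177, 135 and 525 CPM with TGFb in iCre cells, against 496, 748, 421 and 1257 CPM in iCre SS. LacZ cells had 131, 112, 129 and 217 CPM with TGFb, against 575, 611, 479 and 813 CPM in SS. Each TGFb library was below the SS library of the same number, and in iCre cells TGFb number 4 alone overlapped the SS range. Pdgfra fell to 0.328 of SS in iCre cells (log2 -1.61 ± 0.47, adjusted p = 0.00827) and to 0.238 in LacZ cells (log2 -2.07 ± 0.48, adjusted p = 0.000888). The iCre change was -2.34 without TGFb number 4 (adjusted p = 0.000279) and -1.20 without SS number 4 (adjusted p = 0.0529). Without all number 4 libraries the changes were -1.93 in iCre and -2.14 in LacZ (adjusted p = 3.17e-06 and 7.85e-07).

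With IL-1b, Pdgfra had 775, 1250.0, 606 and 1749 CPM in iCre cells and 887, 1175, 756 and 1538 CPM in LacZ cells. Each IL-1b library was above the SS library of its number, although the ranges overlapped. The log2 change of 0.58 ± 0.46 in iCre and 0.81 ± 0.46 in LacZ missed the threshold (adjusted p = 0.442 and 0.242). With the replicate block the changes were 0.61 ± 0.19 in iCre (adjusted p = 0.0176) and 0.78 ± 0.19 in LacZ (adjusted p = 0.00265). Without number 4 they were 0.68 and 0.77 (adjusted p = 0.0434 and 0.0202). With bFGF, Pdgfra averaged 719.8 ± 466 CPM in iCre cells and 673 ± 324 CPM in LacZ cells, against 730.4 ± 378 CPM in iCre SS and 619 ± 140.5 CPM in LacZ SS, with number 4 at 1411 and 1158 CPM in iCre bFGF and LacZ bFGF.

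The other receptor, Pdgfrb (ENSMUSG00000024620, chr18:61045150-61085061, plus strand), had a single call, a fall with IL-1b in iCre cells. Its group means ran from 419 to 606 CPM, and all neighbours in their order overlapped. With IL-1b it had 390.4, 450.3, 342 and 511 CPM in iCre cells, against 612, 648, 551 and 558 CPM in iCre SS, with no overlap. Pdgfrb fell to 0.715 of SS with IL-1b in iCre cells (log2 -0.48 ± 0.16, adjusted p = 0.033), a call lost without IL-1b number 1, 2 or 3 or SS number 1 or 2 (adjusted p of 0.0528 to 0.126). LacZ cells had 411, 469, 329.5 and 508 CPM with IL-1b, against 601, 659.9, 435 and 607 CPM in SS, where number 3 overlapped the IL-1b range. The LacZ change was -0.42 ± 0.16 (adjusted p = 0.0558, and 0.00165 with the replicate block at -0.43). With bFGF the log2 change was -0.48 ± 0.16 in iCre and -0.46 ± 0.16 in LacZ (adjusted p = 0.102 and 0.114), and the replicate block made calls of both (adjusted p = 0.00289 and 0.00527). With TGFb it was 0.03 ± 0.15 in iCre cells, at 606 ± 116 CPM with TGFb and 592 ± 46.3 CPM in SS (adjusted p = 0.886), and adjusted p was 0.988 in LacZ cells.

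Per kilobase of exon, the log2 ratio of Pdgfra to Pdgfrb was -2.47 ± 0.85 in iCre TGFb (SD, n = 4) and -2.87 ± 0.24 in LacZ TGFb, against -0.70 ± 0.72 in iCre SS and -0.78 ± 0.24 in LacZ SS. With IL-1b it was 0.39 ± 0.44 in iCre and 0.44 ± 0.21 in LacZ, where the group mean of Pdgfra exceeded that of Pdgfrb. The ratio of Pdgfc to Pdgfa was -0.42 ± 0.21 in iCre TGFb and -0.81 ± 0.53 in LacZ TGFb, against -3.46 ± 1.31 in iCre SS and -3.80 ± 1.02 in LacZ SS. Without number 4, the ratio of Pdgfc to Pdgfa was -0.52 in iCre TGFb and -1.02 in LacZ TGFb, against -4.10 in iCre SS and -4.30 in LacZ SS, and that of Pdgfra to Pdgfrb was -2.88 and -2.95 with TGFb, against -1.03 and -0.88 in SS, and 0.22 in iCre and 0.34 in LacZ with IL-1b. Since these are bulk libraries, fewer cells of a type and less RNA per cell cannot be told apart. Pdgfrb is itself a mural gene, and the sums of the other mural markers were 148 to 538 CPM in iCre IL-1b and 137 to 271 CPM in LacZ IL-1b, against 160 to 654 CPM in iCre SS and 202 to 685 CPM in LacZ SS, and 4 of the 8 mural markers fell with IL-1b in each vector (Cspg4, Mcam, Myh11 and Notch3). Among all genes, 6.84% in iCre and 8.13% in LacZ fell with IL-1b. With bFGF, Cspg4 rose (log2 1.45 in iCre and 1.38 in LacZ, adjusted p = 0.0325 and 0.0383). No other mural marker was called with bFGF, where 2.2% and 2.56% of all genes were. With TGFb, Cspg4 rose (log2 2.49 and 2.61, adjusted p = 1e-05 and 3.26e-06). Notch3 fell with TGFb (log2 -2.43 and -2.69, adjusted p = 0.00084 and 0.000231), as did Des in iCre and Abcc9 in LacZ. Of the 12 fibroblast markers, TGFb raised Col1a1 in both vectors and lowered 5 in iCre (Dcn, Ddr2, Dpt, Lum and Tcf21) and 6 in LacZ (the same 5 and Col3a1). Among all genes, TGFb raised 20.2% and lowered 18.1% in iCre, and raised 23.4% and lowered 22.9% in LacZ. The part of these marker changes in the Pdgfrb and Pdgfra results was not tested.

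**Figure D3:**
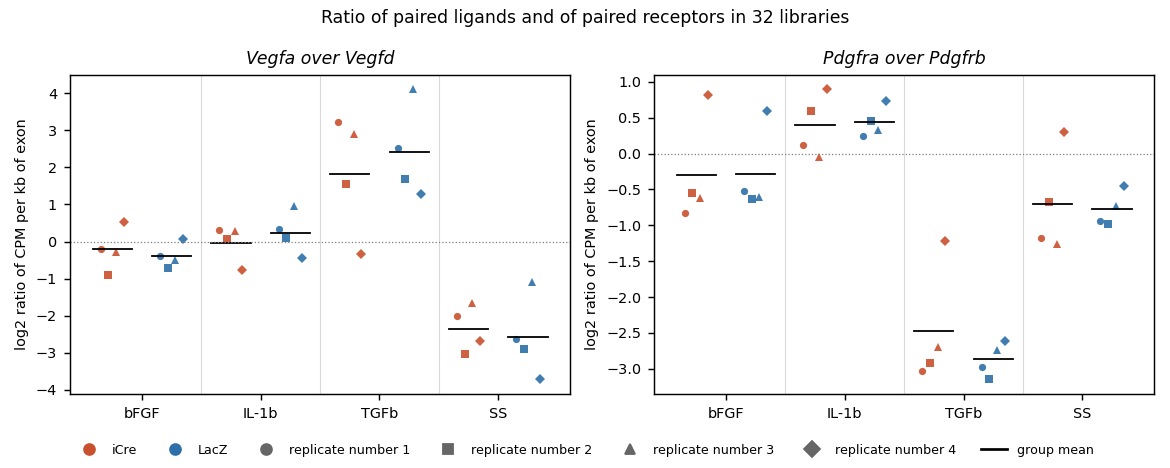
Log2 ratio of CPM per kilobase of exon for Vegfa over Vegfd and Pdgfra over Pdgfrb in each of the 32 libraries, with iCre left of LacZ, marker shapes for the replicate number and bars for group means. The TGFb groups have the highest mean Vegfa to Vegfd ratio (1.84 in iCre, 2.40 in LacZ) and the lowest Pdgfra to Pdgfrb ratio (-2.47 in iCre, -2.87 in LacZ).

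Of 8 other ligands and receptors of both families (Pdgfb, Pdgfd, Pdgfrl, Flt1, Kdr, Flt4, Nrp1 and Nrp2), bFGF called 1 in each vector, IL-1b 3 in each (1 rose, 2 fell), and TGFb 4 in iCre (2 rose, 2 fell) and 3 in LacZ (1 rose, 2 fell). With the replicate block the counts were 2 in iCre and 4 in LacZ with bFGF, 6 in each with IL-1b, and 5 in iCre and 4 in LacZ with TGFb. The block called 11.4% and 12.2% of all genes with bFGF, 29.0% and 32.3% with IL-1b and 51.6% and 58.4% with TGFb. Of all genes tested without the block, 2.2% and 2.56% were called with bFGF, 15.7% and 19.2% with IL-1b and 38.3% and 46.3% with TGFb, in iCre and in LacZ. Flt4, the receptor of VEGF-C and VEGF-D, rose with IL-1b to 26.9 ± 2.24 CPM in iCre cells, against 9.78 ± 1.65 CPM in iCre SS, and to 30.2 ± 3.55 CPM in LacZ cells, against 10.8 ± 2.97 CPM in LacZ SS. The log2 change of Flt4 with IL-1b was 1.46 in iCre and 1.49 in LacZ (adjusted p = 1.42e-07 and 9.11e-08). With bFGF it was 0.88 and 1.10 (adjusted p = 0.00416 and 0.000369). With TGFb, Flt4 rose in iCre cells (log2 0.53, adjusted p = 0.00721) and had an adjusted p of 0.111 in LacZ cells (log2 0.30).

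Pdgfd, a ligand of PDGFR-beta, averaged 25.1 ± 7.87 CPM in iCre TGFb and 23.9 ± 4.33 CPM in LacZ TGFb, against 50.9 ± 13.7 CPM in iCre SS and 56.0 ± 12.8 CPM in LacZ SS. It fell with TGFb (log2 -1.02 in iCre and -1.23 in LacZ, adjusted p = 0.00416 and 0.000642) and with IL-1b (log2 -1.25 and -1.23, adjusted p = 0.00216 and 0.00188). With bFGF it was called under the replicate block alone (-0.83 in each vector, adjusted p = 0.0289 in iCre and 0.0274 in LacZ). Pdgfrl, a PDGF receptor-like gene without a kinase, rose with TGFb (log2 1.55 in iCre and 1.35 in LacZ, adjusted p = 4.98e-06 and 1.52e-05) and fell with IL-1b (log2 -0.81 and -0.97, adjusted p = 0.0112 and 0.00231), and with bFGF the block called its fall in LacZ cells (-0.63, adjusted p = 0.0291). Nrp1, a co-receptor of VEGF-A, fell with TGFb to 83.3 ± 38.2 CPM in iCre cells, against 166 ± 51.7 CPM in iCre SS, and to 65.7 ± 24.3 CPM in LacZ cells, against 166 ± 48.0 CPM in LacZ SS (log2 -0.99 and -1.34, adjusted p = 0.0155 and 0.00131). With IL-1b, Nrp1 changed by -0.91 in iCre and -0.89 in LacZ (adjusted p = 0.0518 and 0.0511), and the replicate block made calls of both (-0.94 and -0.93, adjusted p = 0.000749 and 0.000717). Kdr, the main signalling receptor for VEGF-A, was under 1 CPM in all libraries but number 4 of TGFb and SS, which held 4.71 CPM in iCre TGFb and 3.36 CPM in LacZ TGFb, against 5.50 CPM in iCre SS and 4.96 CPM in LacZ SS. Under the replicate block Kdr was called as lower with IL-1b in both vectors (log2 -2.68 in iCre and -3.70 in LacZ, adjusted p = 0.00146 and 0.000335, and 0.193 and 0.0968 without the block) and with bFGF in LacZ cells (-2.10, adjusted p = 0.0311). The endothelial marker sums had a median of 15.7 CPM in the number 4 libraries, beside medians of 13.4 to 18.3 CPM in the other numbers. With TGFb, number 4 had the highest endothelial sum of its group (30.4 CPM in iCre and 29.3 CPM in LacZ). In SS, number 4 had 14.2 CPM in iCre, the lowest of its group, and 25.4 CPM in LacZ, where the group ran from 17.3 to 34.5 CPM. A link between these sums and Kdr was not tested. Pdgfb with TGFb changed by log2 1.88 in iCre and 2.26 in LacZ (adjusted p = 0.136 and 0.0679), and by 1.87 and 2.57 under the replicate block (adjusted p = 0.000683 and 2.69e-05). Flt1 and Nrp2 were called in no stimulus comparison, apart from Nrp2 with IL-1b under the replicate block (1.03 in iCre and 1.43 in LacZ, adjusted p = 0.00563 and 0.000278).

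**Figure D4:**
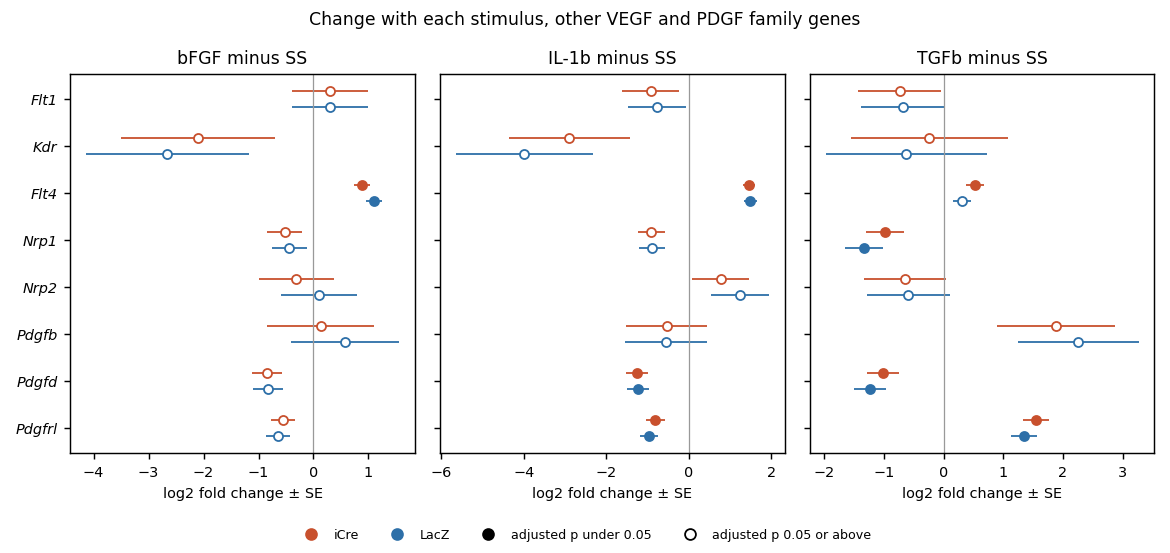
Log2 fold change ± SE of 8 other VEGF and PDGF ligands and receptors for bFGF, IL-1b and TGFb minus SS, with iCre above LacZ and filled points for an adjusted p under 0.05. Flt4 lies right of 0 throughout (1.46 in iCre and 1.49 in LacZ with IL-1b), and Pdgfrl changes side between IL-1b (-0.81 in iCre, -0.97 in LacZ) and TGFb (1.55 in iCre, 1.35 in LacZ).

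Of 8 genes of oxygen sensing, the system that controls Vegfa transcription in hypoxia, IL-1b raised 3 and lowered none in each vector (15.7% of all genes called in iCre and 19.2% in LacZ), TGFb raised 2 and lowered 2 in each vector (38.3% and 46.3% of all genes), and bFGF called 0 (2.2% and 2.56% of all genes; 0 at an unadjusted p under 0.05, and 0 in DESeq2). Hif1a, the oxygen-labile subunit of the hypoxia-inducible factor, rose with IL-1b (log2 1.41 in iCre and 1.54 in LacZ, adjusted p = 8.22e-08 and 1.55e-08) and with TGFb (0.60 and 0.49, adjusted p = 0.00142 and 0.0057). Vegfa rose with these same stimuli, but a link between the oxygen genes and Vegfa was not tested. Egln3, a prolyl hydroxylase that marks Hif1a for degradation, rose with IL-1b (log2 2.34 and 2.29, adjusted p = 0.000218 and 0.00022). Epas1, the related factor HIF-2-alpha, fell with TGFb (log2 -2.41 and -2.57, adjusted p = 0.0122 and 0.0066). Vhl rose with IL-1b (log2 0.31 and 0.28, adjusted p = 0.026 and 0.042) and with TGFb (0.54 and 0.59, adjusted p = 6.71e-05 and 1.62e-05). Arnt fell with TGFb (log2 -0.22 and -0.24, adjusted p = 0.0399 and 0.022). With the replicate block, IL-1b called 5 of the 8 in iCre and 4 in LacZ, Epas1 then being called as higher (log2 1.22 and 1.35), and TGFb called 5 in each vector, with Egln1 added in iCre (log2 0.44, adjusted p = 0.0444) and Egln3 in LacZ (log2 -0.85, adjusted p = 0.0302). The block called 29.0% of all genes in iCre and 32.3% in LacZ with IL-1b, and 51.6% and 58.4% with TGFb.

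Of 7 proteases and cofactors that process these ligands, TGFb called 2 in iCre and 3 in LacZ, IL-1b 2 in iCre and 1 in LacZ, and bFGF 0 in each (2 in iCre and 1 in LacZ at an unadjusted p under 0.05 in edgeR, 1 in iCre and 0 in LacZ called by DESeq2), beside the same shares of all genes as for the oxygen genes. Furin, which cleaves the VEGF-C, VEGF-D and PDGF-A precursors, rose with TGFb (log2 0.82 in iCre and 0.79 in LacZ, adjusted p = 1.31e-08 and 8.18e-09) and with IL-1b (0.33 and 0.27, adjusted p = 0.00337 and 0.0124). Scaling to total counts alone left 1 call with IL-1b in iCre and 0 in LacZ. Plat, tissue plasminogen activator, which cleaves latent PDGF-C, fell with TGFb while Pdgfc rose (log2 -1.51 and -1.85, adjusted p = 7.78e-06 and 2.66e-07). Plau fell with TGFb in LacZ cells (log2 -1.86, adjusted p = 0.015) and changed by -1.18 in iCre cells (adjusted p = 0.124). Adamts3, which processes VEGF-C, rose with IL-1b in iCre cells (log2 2.68, adjusted p = 0.0313, lost without any of 6 single iCre libraries) and changed by 2.06 in LacZ cells (adjusted p = 0.0843, and 0.000135 with the replicate block). With the block the counts were 1 in iCre and 3 in LacZ with bFGF, 3 and 4 with IL-1b, and 5 and 6 with TGFb. The shares of all genes called with the block were 11.4% and 12.2%, 29.0% and 32.3%, and 51.6% and 58.4%, in the same order.

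Among 20 receptor adaptors and proximal signalling genes, TGFb called 9 in iCre (4 rose, 5 fell) and 10 in LacZ (4 rose, 6 fell), IL-1b 5 in iCre (2 rose, 3 fell) and 6 in LacZ (3 rose, 3 fell), and bFGF 1 in each vector, which fell. The shares of all genes called were 38.3% and 46.3% with TGFb, 15.7% and 19.2% with IL-1b and 2.2% and 2.56% with bFGF, in iCre and in LacZ. The count of the list with TGFb was near the share of all genes. The gene called with bFGF was Gab1, a docking protein of receptor tyrosine kinases (log2 -0.81 in iCre and -0.79 in LacZ, adjusted p = 0.0135 and 0.013). Gab1 also fell with IL-1b (log2 -1.19 and -1.27, adjusted p = 1.74e-05 and 5.22e-06) and with TGFb (-1.14 and -1.30, adjusted p = 9.2e-06 and 9.1e-07). Pik3cb, a catalytic subunit of phosphoinositide kinase, rose with TGFb (log2 2.01 and 2.42, adjusted p = 2.4e-06 and 1.12e-07). The regulatory subunit gene Pik3r1 fell with it (log2 -0.93 and -1.44, adjusted p = 0.00952 and 0.000155). The Gab1 call with bFGF was lost without iCre bFGF number 2, iCre SS number 1 or 2 in iCre cells, and without LacZ SS number 1 or 2 in LacZ cells. With the replicate block, bFGF called 2 of the 20 in each vector, beside 11.4% of all genes in iCre and 12.2% in LacZ.

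The comparison of iCre with LacZ asks whether the change of Pkm product alters the transcriptome of these cells. For the 9 genes the test called 0 in each of the 4 conditions, where 0.0% of all genes were called, and 0 for the average over conditions, where 0.107% of all genes were called. Without a block, none of the 9 had an unadjusted p under 0.05 in edgeR or DESeq2 in any of these 5 comparisons, and DESeq2 also called 0. With the replicate block 0 were called, and an unadjusted p was under 0.05 for 1 of the 9 with bFGF (Pdgfc), 0 with IL-1b, 0 in SS, 2 with TGFb (Pdgfa and Pdgfra) and 1 for the average (Pdgfc). The median difference of the 9 genes was 0.04 (log2) for the average, beside 0.009 over all genes. Vegfa, for example, averaged 373 ± 111 CPM in iCre TGFb and 441 ± 31.2 CPM in LacZ TGFb, and 119 ± 24.1 CPM in iCre SS and 112 ± 22.6 CPM in LacZ SS.

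Pdgfc had the largest average difference of the 9, at log2 0.31 ± 0.19 (adjusted p = 0.797), and was higher in iCre in 13 of 16 same-numbered pairs. Its pair differences were 0.36, 0.66, 0.26 and 0.68 with bFGF, 0.51, 0.65, 0.11 and 0.58 with IL-1b, 0.56, 0.29, -0.27 and -0.49 with TGFb, and 0.54, 0.34, -0.18 and 0.18 in SS, in the order of numbers 1 to 4. All 8 pairs with bFGF or IL-1b were therefore above 0, while those with TGFb and SS had both signs. A separate block for every iCre and LacZ pair gave 0.30 ± 0.08 (adjusted p = 0.0308), with 5.86% of all genes called in that fit. The 16 pairs come from 4 numbers and are not independent, which that fit disregards. The replicate block alone gave 0.31 ± 0.12 (adjusted p = 0.194), and counts summed over conditions, with 1 pair for each number, gave 0.13 ± 0.15 (adjusted p = 0.836).

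Pgf followed at 0.29 ± 0.25 (adjusted p = 0.869, higher in iCre in 12 of 16 pairs) and Pdgfra at 0.26 ± 0.23 (adjusted p = 0.874, 9 of 16 pairs). The other 6 genes had averages between -0.06 and 0.11, with 7 to 10 of 16 pairs higher in iCre. Without number 4, the Pdgfra average was 0.01 and that of Pgf 0.14. The responses to the stimuli were also compared between the vectors, as the change in iCre minus the change in LacZ. The largest such difference was that of Vegfd with TGFb, at 0.58 ± 0.69 (log2), followed by Pdgfra with TGFb at 0.47 and Pgf with TGFb at -0.41, each with an adjusted p of 1.0. The test called 0 of the 9 genes and 0.0% of all genes for each of the 3 stimuli in edgeR and DESeq2, and 67, 93 and 201 of all genes had an unadjusted p under 0.05 in edgeR for bFGF, IL-1b and TGFb. Calls that passed in 1 vector only, such as Pdgfa with TGFb, are thus not shown to differ between vectors.

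**Figure D5:**
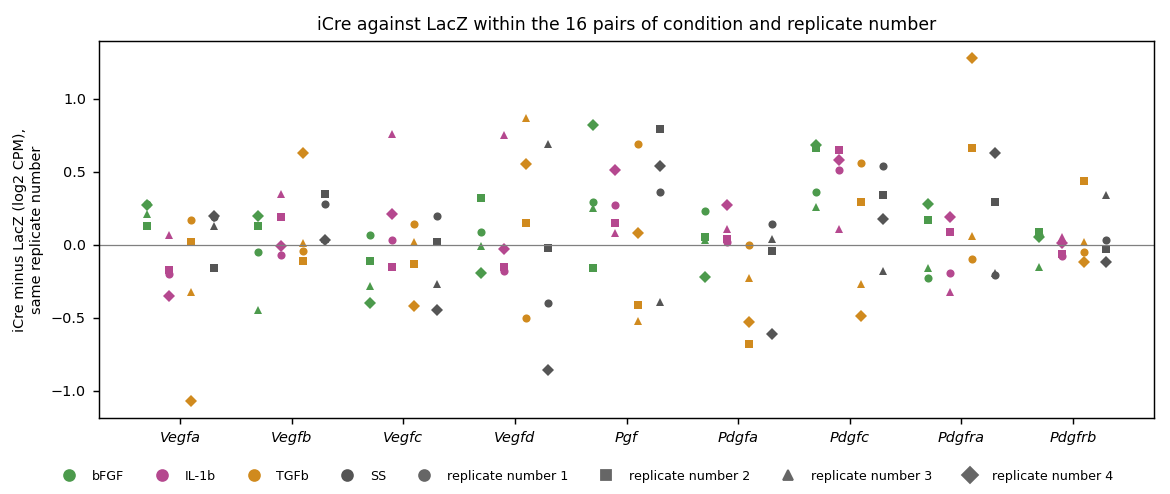
Log2 difference in CPM between iCre and LacZ libraries of the same condition and replicate number for each of the 9 genes, 16 points a gene, coloured by condition with marker shapes for the number. Pdgfc has 13 of 16 points above 0, and Vegfd, Pdgfra and Pgf scatter most widely on both sides.

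The genes whose log2 CPM most resembled each member over the 32 libraries, centred on each number, were sought among the 9318 genes at an average log2 CPM of at least 3. The closest to Pdgfra was Tbc1d2b (Pearson r = 0.982), followed by the TGFb co-receptor gene Tgfbr3 (0.979). Pdgfc was closest to Ncam1 (0.980), Vegfb to the lysosomal genes Psap (0.979) and Ctsa (0.976), and Vegfa to Psmd2 (0.962) and Gys1, muscle glycogen synthase (0.958). Pgf was closest to Stx6 (0.967), Pdgfa to Fads3 (0.951), Pdgfrb to Dennd4a (0.943) and Vegfd to Sh3rf3 (0.931). Vegfc had the lowest best match, Nhs at 0.753. Between members, r was 0.95 for Vegfb with Pdgfra and -0.94 for Pdgfc with either. These values describe likeness over 32 libraries of 8 groups that share the same stimuli, with no test.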

How the data were processed

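The deposited values are raw counts per gene for 32 libraries of poly(A) RNA made with the RNeasy Micro and NEBNext Ultra II kits, per the labels. FastQC 0.10.1, HTSeq 0.10.0 and mm10/GRCm38 are named in the submitters' processing notes, and no aligner, strand setting or annotation release is given in them or in the labels. Of 55414 gene IDs, 52133 (99.77% of counts) matched a symbol in the reference tables, chiefly GENCODE M21, which also gave coordinates and exon lengths, and 0 columns were without a sample. The lowest chi-square per degree of freedom between replicates of a group was 9.1 over 48 pairs, so no library was a copy of another of its group.

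Counts were tested with edgeR 4.0.16 in R 4.3.3 (TMM factors, the default filter by group, robust quasi-likelihood fits, 1 mean for each of 8 groups). Two-sided p-values were adjusted (Benjamini-Hochberg) within each of 14 contrasts over 16760 genes, with a threshold of 0.05. CPM uses TMM-scaled library sizes, and CPM per kilobase divides by the merged exon length. Depth was 20736203 to 34995038 counts a library, so a gene at 1 CPM rests on few reads. DESeq2 1.42.0, other scalings, no filter, each contrast's own groups alone, omission of each library or of number 4, and blocks for the replicate number were tried. Deviations from group means correlated at 0.153 to 0.857 between same-numbered libraries over 40 pairs, all above 0.1. The numbers, which come from the titles, were therefore taken to pair the libraries. No correlation between different numbers is given, and number 4 stood apart. These values alone thus cannot show that numbers 1 to 3 are paired. The labels do not say whether replicates are separate animals or cultures, and p-values measure only the spread between these libraries. The script was tested on simulated data. Figures used matplotlib 3.10.9 in Python 3.11.15.

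The 9 genes and the other lists were chosen with earlier results of these data known. Named in every comparison are the 9 genes, and from each other list up to 4 genes with the smallest p among those called. Of the receptor adaptors and signalling genes, fewer of those called were named with IL-1b and TGFb. Kdr, Pdgfb, Flt1, Nrp2, Egln1, some values of other list genes under the replicate block and the marker genes were named beyond that rule after their values were seen. The 3 genes most like each member were found by Pearson r among 9318 genes.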

Additional observations from a re-analysis of the deposited data

Results flagged for a closer look

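In groups of 4, a library was marked where its gap to the nearest of the others was a larger part of the group's range than Dixon's 95% critical value allows. Of 72 gene and group combinations 12 were marked, where chance marks about 1 in 20, and 10 of the 12 were libraries numbered 4. High number 4 libraries were those of Pdgfra in iCre bFGF (1411 CPM), LacZ bFGF (1158 CPM) and iCre TGFb (525 CPM), Pgf in iCre bFGF (11.9 CPM) and LacZ bFGF (6.69 CPM), Pdgfc in iCre SS (13.1 CPM) and Vegfc in iCre IL-1b (61.1 CPM). Low number 4 libraries were those of Pdgfa in iCre SS (22.8 CPM) and LacZ SS (34.9 CPM) and Vegfc in LacZ bFGF (17.7 CPM). The other two were number 3 of LacZ IL-1b, low for Vegfb (30.2 CPM) and for Vegfd (71.8 CPM). For Pdgfra and Pgf with bFGF, the same number was marked in both vectors.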

How the results depend on the processing

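The calls of Vegfa and Pgf with TGFb and IL-1b, and of Pdgfc, Vegfb and Vegfd with TGFb, held in both vectors under each alternative and each omission of 1 library, and so did Pdgfra with TGFb in LacZ. Counts called among the 9 genes moved most with bFGF in iCre (0): 2 with DESeq2, 3 with the replicate block and with the block within a vector, 2 without number 4, and 0 to 1 with 1 library left out. For bFGF in LacZ (1) they were 0 with the contrast's own groups alone, 0 with no filter, 2 with either block, and 0 to 2 with 1 library left out. For IL-1b (3 in each vector) either block gave 5, omission of 1 library 2 to 4, and omission of number 4 gave 5 in LacZ. For TGFb omission of 1 library gave 5 to 6 in iCre and 6 to 7 in LacZ. The average of iCre against LacZ (0) became 1 with the block within a condition, which is Pdgfc. The replicate block changed no call among the 9 beyond those printed with their results.

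Over all genes, bFGF called 368 in iCre and 429 in LacZ, but 856 and 881 with DESeq2, 1916 and 2048 with the replicate block, 2047 and 2229 with the block within a vector, 2621 and 1638 without number 4, 190 and 212 with no filter, and 18 and 19 with its own groups alone. IL-1b called 2634 and 3216, 4868 and 5418 with the block, 5072 and 5558 within a vector and 4280 and 4874 without number 4. The average called 18, 85 with DESeq2, 475 with the block, 982 with the block within a condition, 114 without number 4 and 9 with summed counts. The block within a condition called 14 in SS, 15 with bFGF and 46 with TGFb, and the replicate block 1 with bFGF and 5 with TGFb, where the test without a block called 0 (317, 335, 251 and 526 at an unadjusted p under 0.05 for SS, bFGF, IL-1b and TGFb, and 0 called by DESeq2).

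With 1 library left out, differences that crossed 0 ranged from -0.37 to 0.15 for Vegfc (iCre against LacZ, bFGF), -0.27 to 0.0 for Vegfa (IL-1b), -0.03 to 0.95 for Pdgfra (TGFb), -0.13 to 0.01 for Pdgfa (average) and -0.08 to 1.02 for Vegfd (difference of the TGFb responses). Each crossing came with the omission of a number 4 iCre library, and none of these differences was called. The cause was not tested. Calls lost with the contrast's own groups alone were Pdgfra with TGFb in iCre (adjusted p = 0.0611), Pdgfrb with IL-1b in iCre (0.0649) and Vegfd with bFGF in LacZ (0.0627). With no filter, Pdgfa with TGFb in LacZ (0.0673), Pdgfrb with IL-1b in iCre (0.0525) and Vegfd with bFGF (0.0546) and IL-1b (0.0644) in LacZ were lost, with more genes tested. Depth limits Pgf in SS and Kdr most, at a few CPM or less.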
